A study of Drosophila melanogaster with 6 samples.

Results

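The genes described here are 10 that work in the germline or in the piRNA pathway, out of 11982 genes with a named probe set on the array. They are Kots, krimp, RpS5b, vas, aub, piwi, AGO3, tej, nos and bam. Kots, krimp and RpS5b were selected on their higher values in tumour discs, so their differences are given as a description, with no test. The other 7 were chosen by function, with the levels on these arrays already known, to show whether more of the germline programme could be seen beside them. Each gene was measured by 1 probe set. The array annotation lists nos as nanos, which was matched by its gene identifier because nitric oxide synthase, Nos, carries the same synonym.

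RNA came from eye-antennal discs, the sheets of larval tissue from which eye, antenna and much of the head develop, of Drosophila melanogaster in 2 genotypes with 3 arrays each. Tumour discs were ey-Gal4 GS(2)88A8 UAS-Dl/+, in which the eye driver ey-Gal4 acts on the GS(2)88A8 insertion and on a transgene of the Notch ligand Delta. Control discs were GS(2)88A8 UAS-Dl/+, with both insertions and no driver. Both were in the w1118 strain, larvae of the last stage were raised at 25 °C until they wandered, and each sample pooled what reads as 300 pairs of discs. The GS line is known to bring the BTB-domain genes lola and psq under the control of Gal4. The driver acts in the eye part of a disc that also holds antennal tissue, and with no group of driver only, what the driver does by itself and what its targets do cannot be told apart.

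The germline keeps a set of proteins that somatic tissue does not normally make. Nuage, a perinuclear granule of germ cells, gathers the RNA helicase Vas and a family of Tudor-domain proteins, which hold the Piwi-clade Argonautes Piwi, Aub and AGO3. These Argonautes carry piRNAs, small RNAs that silence transposons. In larval brains that lack l(3)mbt, a chromatin repressor, germline genes such as nos, vas, piwi and aub become expressed in tumour tissue, which is why such genes are of interest in disc overgrowth.

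Values are log2 intensities made by the authors with GCRMA, on a scale whose floor is 2.17. A gene is said to reach the level of 4 when its brightest probe set had a log2 value of at least 4 on at least 3 of the 6 arrays, and 53.8% of named genes did. The 2 replicate 1 arrays stood apart. Their 18S rRNA control averaged 12.48 log2 in tumour and 10.33 log2 in control, against 5.50 to 7.19 log2 on the other 4 arrays. The 3' minus 5' difference of the actin control was 1.028 log2 in tumour and 0.858 log2 in control. On the other 4 arrays that difference was 0.35 to 0.591 log2. The tissue matched its label: all 12 measured markers of eye and antennal disc reached the level of 4, among them the eye-field genes ey, so, eya and dac. In the paired fit by limma, described with the tests further on, 7 of these 12 were called higher in tumour, such as ey at 1.24 log2 (adjusted p = 0.0056). Of the 12, 1 was called lower, the antennal gene Dll at -0.61 log2 (limma adjusted p = 0.035). Over all tested genes 4.06% were called higher and 5.38% lower in that fit. In the unpaired fit 0 of the 12 were called by limma, with an unadjusted p under 0.05 for 7, a count not made over all tested genes. The part of this shift in the results on germline genes was not tested. In RNA from whole discs, more cells that express a gene and more RNA per cell cannot be told apart.

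Kots encodes a Tudor-domain protein, known earlier as CG9925. It had values of 6.30, 7.01 and 7.27 log2 in tumour discs, against 2.17, 2.2 and 2.18 log2 in control discs. All 3 control arrays lay at or next to the floor of the scale and all 3 tumour arrays lay far from it, with 4.10 log2 between the lowest tumour and the highest control array. The means were 6.86 ± 0.50 log2 in tumour and 2.18 ± 0.02 log2 in control (SD, n = 3). The difference of 4.68 log2 between the means makes Kots 25.7-fold higher in tumour. Between arrays of the same number it was 4.14, 4.81 and 5.10 log2. The control level cannot be read below the floor, so the fold may be larger than the values show.

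Krimper, the product of krimp, is another Tudor-domain protein, which holds AGO3 and Aub in nuage. Its values were 4.68, 5.91 and 6.80 log2 in tumour discs and 2.64, 4.41 and 4.32 log2 in control discs. The genotypes did not overlap, but the lowest tumour array was only 0.27 log2 above the highest control array. Within each genotype the replicate 1 array was the lowest. That is the replicate with the high 18S rRNA control, and the part of the array's condition in the level of krimp was not tested. Between arrays of the same number the difference was 2.05, 1.49 and 2.48 log2, and with replicates 2 and 3 alone it was 1.99 log2. The means were 5.80 ± 1.06 log2 in tumour and 3.79 ± 1.0 log2 in control (SD, n = 3), a difference of 2.01 log2 or 4.02-fold. Without control replicate 1 that difference was 1.43 log2, and without tumour replicate 1 it was 2.56 log2.

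RpS5b is the copy of ribosomal protein S5 that is known from the germline, while its paralogue RpS5a serves most somatic cells. Its values were 8.01, 7.92 and 7.89 log2 in tumour discs, against 6.80, 6.44 and 6.54 log2 in control discs. The 3 tumour arrays lay within a narrow band, all above the control arrays by at least 1.09 log2. The means were 7.94 ± 0.06 log2 in tumour and 6.59 ± 0.19 log2 in control (SD, n = 3), a difference of 1.35 log2 or 2.55-fold. Unlike Kots, RpS5b was above the level of 4 on every control array, so it was measured in discs of both genotypes. RpS5a had no probe set of its own in the annotation used here, and how far its transcripts reach the RpS5b probes was not tested.

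The remaining 7 genes gave no measurable signal. tej, whose product Tejas is a Tudor-domain partner of Vas, had 2.18, 2.18 and 2.22 log2 in tumour discs and 2.18, 2.17 and 2.18 log2 in control discs. The helicase gene vas had 2.17 log2 on all 3 tumour arrays and on all 3 control arrays. Among the Argonautes, aub had the same 2.17 log2 on every array. These 3 genes thus sat at or next to the floor in both genotypes.

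The nuclear Argonaute gene piwi had 2.41, 2.21 and 2.25 log2 in tumour discs and 2.21 log2 on each control array, and AGO3 had 2.2 log2 on each tumour array and 2.2, 2.21 and 2.42 log2 in control discs. The highest array was tumour replicate 1 for piwi and control replicate 3 for AGO3, so the pair did not favour 1 genotype. The translational repressor gene nos, which maintains germline stem cells, and bam, the switch from stem cell to differentiation, had 2.17 log2 on all 6 arrays. The 7 genes had differences between -0.08 and 0.08 log2, and none reached 4 on any array. A value at the floor sets no lower limit on the transcript, so a small amount of any of these RNAs would not be seen.

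**Figure D1:**
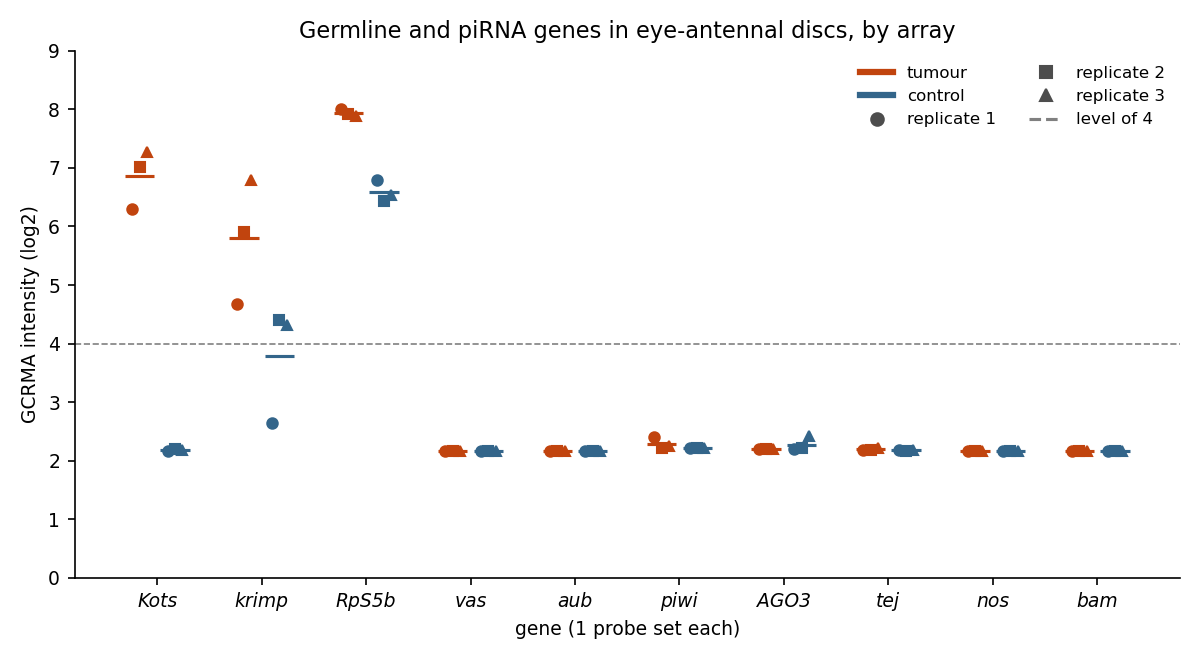
GCRMA log2 intensity (vertical axis) of the 10 genes on each array, with tumour left of control, a symbol for each replicate number, a bar at the mean of 3 arrays and a dashed line at the level of 4. Kots, krimp and RpS5b separate by genotype, while the other 7 genes lie between 2.17 and 2.42 log2 on all arrays.

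Only the 3 genes selected on their rise passed the filter on low values, the level of 4 on at least 3 arrays. Kots passed it on its tumour arrays alone, so it had to differ. All 3 had every tumour array above every control array, which was so for 8.72% of the 6447 tested genes. Because the genes were selected on this contrast, nothing is read from their count.

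Probe sets that crossed the level of 4 between the genotypes on all arrays, as that of Kots did, were counted over the whole array as a description. Of 18769 probe sets other than controls, 4 lay under 4 on all control arrays and at or above 4 on all tumour arrays, and 5 showed the opposite pattern. Beside Kots the 4 were the probe set of Ilp8, a relaxin-like hormone of damaged or overgrown discs, 1 of RFeSP, the iron-sulphur subunit of respiratory complex III, and 1 that matches several genes. They are named here after their values were seen. The RFeSP probe set had 6.65, 7.82 and 8.15 log2 in tumour discs and 2.52, 2.52 and 2.51 log2 in control discs. Its difference of 5.03 log2 was larger than the 4.68 log2 of Kots, so the pattern was not particular to the probe set of Kots. With each gene read on its brightest tested probe set, Kots ranked 1 of 6447 by difference. This probe set is therefore not the brightest of RFeSP, and its values do not stand for the whole gene. Ilp8 had 5.75, 6.99 and 7.53 log2 in tumour discs and 2.82, 3.33 and 2.90 log2 in control discs. Kots was the single gene of the germline lists among them.

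**Figure D2:**
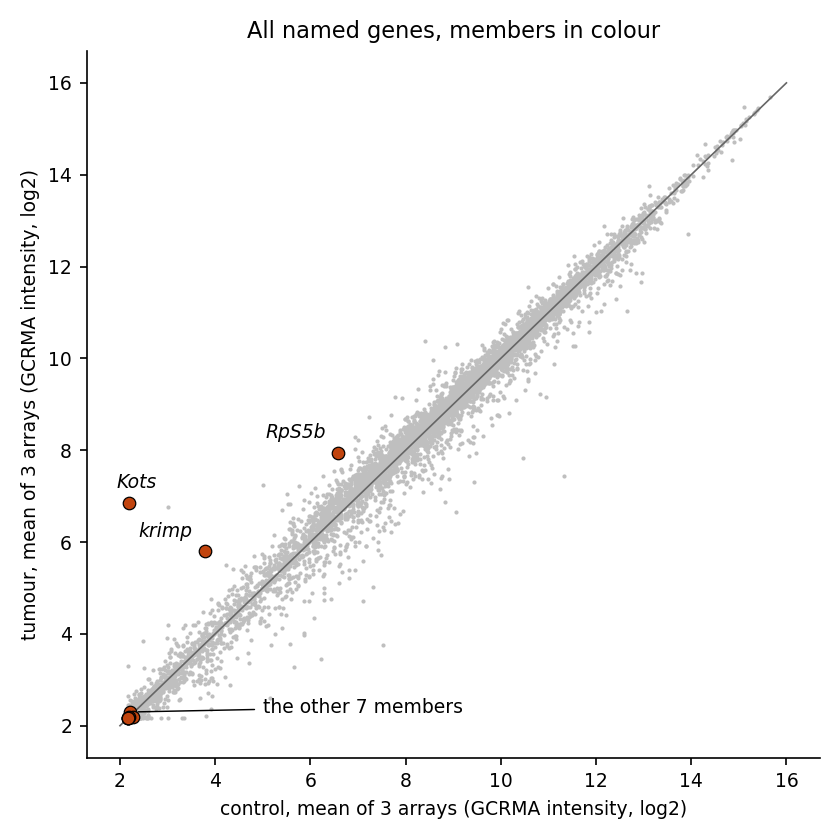
Mean log2 intensity in tumour (vertical axis) against control (horizontal axis), 3 arrays each, for all 11982 named genes in grey and the 10 germline and piRNA genes in colour; the line marks equal values. Kots, at 6.86 and 2.18 log2, and krimp, at 5.80 and 3.79 log2, lie above the line, as does RpS5b, at 7.94 and 6.59 log2, and the other 7 genes sit in the lower left corner.

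To see how far the germline programme reaches in discs, 8 lists were set beside these genes: nuage and Tudor proteins, Piwi proteins and piRNA biogenesis, transcription of piRNA precursors, silencing downstream of Piwi, germline stem cells and differentiation, oocyte and egg, testis and spermatocyte, and ribosomal protein paralogues. Together they held 132 genes with a probe set, of which 68 reached the level of 4, or 51.5%, near the 53.8% of all named genes. Many of these genes also serve somatic cells, and the lists differed in this. Of 23 measured testis and spermatocyte genes 3 reached the level of 4, and of 23 oocyte and egg genes 7 did. All 10 measured genes of silencing downstream of Piwi did, among them the gene of the heterochromatin protein HP1a.

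Markers of germ cells themselves were almost all at the floor. Of 9 markers, 7 lay under 3 log2 on all 6 arrays: vas, nos, bam, bgcn, zpg, otu and orb. The other 2 were ovo, whose gene also makes the epidermal factor Shavenbaby, and Rbp9, also a neuronal gene. ovo averaged 11.40 ± 0.19 log2 in tumour and 11.29 ± 0.35 log2 in control, and Rbp9 averaged 8.11 ± 0.26 log2 in tumour and 8.29 ± 0.30 log2 in control (SD, n = 3). Neither was called in either fit by limma (adjusted p = 1 and 0.99 unpaired, 0.69 and 0.27 paired). The mean level of the 9 markers ran from 3.83 to 3.92 log2 over tumour arrays and from 3.81 to 3.92 log2 over control arrays. Of 14 measured markers of somatic gonad cells, 13 lay under 3 log2 on all arrays, including tj, fs(1)Yb and the yolk protein genes Yp1, Yp2 and Yp3. The exception was bnb, with 12.65 ± 0.21 log2 in tumour and 12.94 ± 0.39 log2 in control (SD, n = 3, limma adjusted p = 0.091 paired). The mean level of the 14 ran from 2.93 to 2.98 log2 over tumour arrays and from 2.93 to 2.97 log2 over control arrays.

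**Figure D3:**
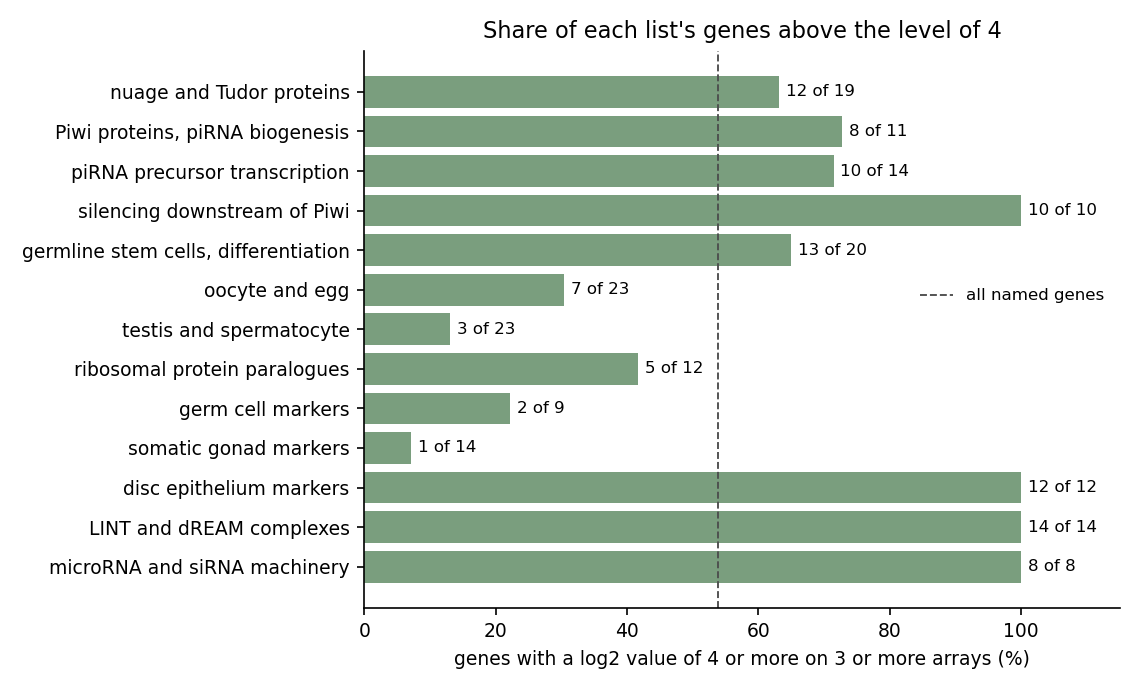
Share of the measured genes of each list (horizontal axis, percent) whose log2 value was 4 or more on at least 3 of the 6 arrays, with the counts beside each bar and a dashed line at the 53.8% of all named genes. The somatic gonad markers, with 1 of 14, and the testis list, with 3 of 23, stand at the low end, and all 12 disc markers reached the level.

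Tumour and control were then compared across all 7962 tested probe sets with limma, with no covariate in the unpaired fit and with the replicate number as a block in the paired fit. Adjusted p-values are Benjamini-Hochberg values over all tested probe sets, called under 0.05. Counts at an unadjusted p under 0.05 were not made over all tested genes, so nothing is read from those of any list. In the unpaired fit 0 of the 65 tested list genes other than the 10 members were called by limma, while 6 had an unadjusted p under 0.05. Over all tested genes 0.14% were called higher and 0.372% lower. In the paired fit 3 of the 65 were called higher and 1 lower, or 4.62% and 1.54%, against 4.06% higher and 5.38% lower over all tested genes. With replicates 2 and 3 alone 3 of the 65 were called higher, against 2.98% of all tested genes. These shares of higher calls lie near the background, and that of lower calls lies below it. In a short list taken alone, a count of 0 calls also lies near the background, so nothing is read from such counts below. The median difference of the 65 genes was 0.10 log2, and that of all tested genes was 0.05 log2.

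The rise in the paired fit was seen in del, Gasz and mia. del encodes Deadlock, a partner of the HP1 homologue Rhino at piRNA source loci. Its values were 8.42, 8.4 and 8.60 log2 in tumour discs, against 7.01, 7.70 and 7.78 log2 in control discs. The genotypes did not overlap, and control replicate 1 was the lowest array. The difference was 0.98 ± 0.159 log2 (SE of the paired fit by limma, adjusted p = 0.031), the unpaired adjusted p was 0.23, and over the 19 settings tried it ran from 0.0046 to 0.67. The paired call was lost without replicate 3 (limma adjusted p = 0.25). Rhino itself, from rhi, and the cluster-specific factors moon and kipf stood under 3 log2 on all arrays. The brightest genes of this list, Hel25E, TfIIA-S and CtBP, serve all cells and differed by 0.09, 0.11 and 0.07 log2 (limma adjusted p = 0.29, 0.16 and 0.56 paired).

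Downstream of Piwi, in the nuclear silencing of transposons, 10 of 10 tested genes had a higher mean in tumour on their brightest probe set. The differences ran from 0.03 to 0.33 log2, with a median of 0.18 log2. Further probe sets went both ways, at -0.03 log2 for ctp, -0.09 and 0.45 log2 for CoRest and 0.23 log2 for Su(var)2-10. Of all tested genes 61.6% had a higher mean in tumour, and after centring each array on its ribosomal protein genes these were 9 of 10 and 46.9%. Of the 10 genes, 0 were called by limma in either fit, with an unadjusted p under 0.05 for 0 unpaired and 6 paired. The share of all tested genes with such a p was not counted. The brightest were ctp, a dynein light chain gene, at 0.07 log2, the HP1a gene at 0.15 log2 and the RNA export gene Nxt1 at 0.20 log2 (limma adjusted p = 0.33, 0.13 and 0.070 paired).

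Gasz encodes a scaffold protein of the mitochondrial outer membrane, where piRNAs are cut. It had 9.24, 9.14 and 9.19 log2 in tumour discs and 8.47, 8.77 and 8.71 log2 in control discs, with no overlap. It rose by 0.54 ± 0.098 log2 in the paired fit (SE, limma adjusted p = 0.040), with an unpaired adjusted p of 0.21 and a range of 0.013 to 0.67 over the 19 settings. Leaving out replicate 1, 2 or 3 ended the paired call (limma adjusted p = 0.056, 0.054 and 0.29). The other 7 tested genes of piRNA biogenesis, among them the helicase gene armi at 0.02 log2, the trimming nuclease gene Nbr at -0.05 log2 and the piRNA-cutting nuclease gene zuc at -0.01 log2, were not called in either fit.

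mia encodes a testis form of a general transcription factor subunit, needed for meiosis in males. It had 7.76, 8.0 and 7.94 log2 in tumour discs, against 6.81, 7.55 and 7.41 log2 in control discs. The difference was 0.64 ± 0.127 log2 in the paired fit (SE, limma adjusted p = 0.047), with an unpaired adjusted p of 0.48 and a range of 0.016 to 1 over the 19 settings. Leaving out replicate 1, 2 or 3 ended this paired call as well (limma adjusted p = 0.059, 0.067 and 0.29). Its partners in the testis programme, aly, can, sa, comr, topi, tomb and nht, stood under 3 log2 on all 6 arrays, so mia was not accompanied by them at a measurable level. The other 2 tested genes of that list, achi and the meiotic phosphatase gene twe, differed by 0.27 and 0.29 log2 (limma adjusted p = 0.27 and 0.44 paired).

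The 1 list gene called lower was tapas, the Tudor-domain paralogue of tej. Its brightest probe set had 7.43, 7.81 and 7.90 log2 in tumour discs and 8.06, 8.32 and 8.23 log2 in control discs. This fell by 0.50 log2 in the paired fit (SE 0.094, limma adjusted p = 0.043), with an unpaired adjusted p of 0.50 and a range of 0.014 to 0.96 over the 19 settings. Without replicate 1, 2 or 3 the paired call was lost (limma adjusted p = 0.081, 0.11 and 0.25). The second probe set of tapas pointed the other way, at 0.24 log2 (limma adjusted p = 0.18 paired), so the gene has no single direction here.

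Other Tudor and nuage genes were measured at the same time. Of the 10 tested genes of this list other than Kots and krimp, 0 were called higher and 1, tapas, lower in the paired fit. Over all tested genes 4.06% were called higher and 5.38% lower, so these counts lie near the background. Since Kots and krimp were selected on their rise, nothing is read from the contrast with them. vret, a Tudor gene that the piRNA pathway uses in gonadal soma as well as in germ cells, differed by 0.46 log2 (limma adjusted p = 0.058 paired, 0.34 unpaired), and tud, the founding member, by -0.16 log2 (limma adjusted p = 0.64 paired). The helicase gene spn-E differed by 0.10 log2 (limma adjusted p = 0.62 paired). The brightest of the list, the translational repressor gene me31B, differed by 0.04 log2 and the Tudor gene papi by 0.11 log2 (limma adjusted p = 0.65 and 0.24 paired). qin, mael, BoYb and fs(1)Yb lay under 3 log2 on all arrays.

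Of 13 tested genes of germline stem cells and differentiation 0 were called in either fit by limma, with an unadjusted p under 0.05 for 1 in the unpaired fit and 3 in the paired fit. gcl, which helps primordial germ cells form, differed by 0.43 log2 (limma adjusted p = 0.053 paired), and tut, which acts with bam in the testis, by 0.87 log2 (limma adjusted p = 0.14 paired). The pair of them, like vret, were named after their values were seen. The germ plasm gene osk and the bam partner bgcn were at the floor. pum, which encodes the RNA-binding partner of Nos, differed by 0.14 log2, and twin, a deadenylase gene, by 0.06 log2 (limma adjusted p = 0.31 and 0.42 paired). Of 7 tested oocyte and egg genes 0 were called by limma in either fit, with an unadjusted p under 0.05 for 0 unpaired and 2 paired. The brightest of them, the dynein heavy chain gene Dhc64C and the transport adaptor genes egl and BicD, differed by -0.05, -0.02 and -0.13 log2.

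The ribosomal protein paralogues beside RpS5b were not selected on their differences, so their values are given with no comparison to it. RpS10a, RpS19b, RpL10Aa, RpL22-like, RpL37-2, RpS28-like and RpS28a did not reach the level of 4, and each had a difference between -0.02 and 0.00 log2. The other 4 tested genes of the list were not called in either fit by limma, with differences from -0.20 to 0.17 log2. The widely used copies RpLP0, RpL10Ab and RpS28b differed by 0.07, 0.06 and 0.04 log2 (limma adjusted p = 0.23, 0.31 and 0.41 paired).

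**Figure D4:**
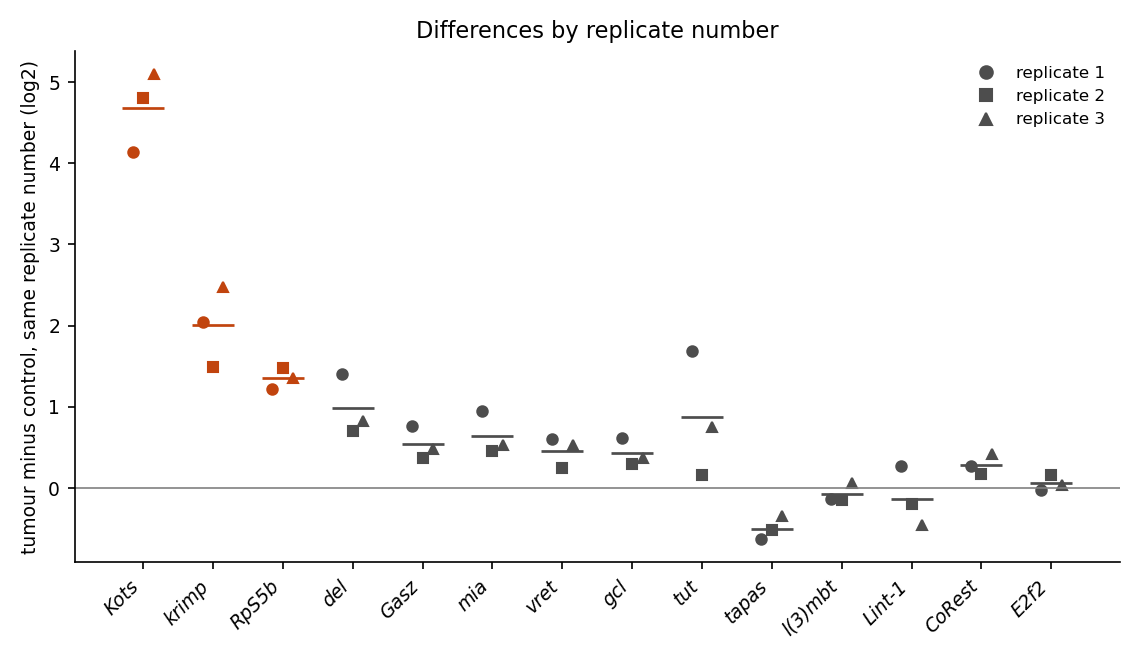
Tumour minus control log2 difference (vertical axis) between arrays of the same replicate number, with a bar at the mean, for Kots, krimp and RpS5b in colour and for 11 genes of the germline and repressor lists in grey. Kots, at 4.68 log2, krimp, at 2.01 log2, and RpS5b, at 1.35 log2, were selected on these differences, while del lies at 0.98 log2 and l(3)mbt at -0.07 log2.

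Repressors that keep germline genes silent in soma were then examined. L(3)mbt works in the LINT complex with Lint-1 and CoRest, and it also joins the dREAM complex of E2f2, Rbf and the Mip proteins. l(3)mbt had 7.74, 8.33 and 8.52 log2 in tumour discs and 7.87, 8.48 and 8.46 log2 in control discs on its brightest probe set, while its second probe set was at the floor. The genotypes overlapped, and the difference was -0.07 ± 0.085 log2 (SE of the paired fit by limma, adjusted p = 0.61). E2f2 differed by 0.06 log2 (limma adjusted p = 0.56 paired), Lint-1 by -0.13 log2 (limma adjusted p = 0.59 paired) and the co-repressor gene CoRest by 0.29 log2 (limma adjusted p = 0.060 paired). HDAC1, the deacetylase gene among the brightest of the list, differed by -0.03 log2 (limma adjusted p = 0.76 paired). Of 14 tested genes of these complexes 0 were called by limma in either fit, where the unadjusted p was under 0.05 for 0 unpaired and 1 paired. Over all tested genes 4.06% were called higher and 5.38% lower in the paired fit, and 0.14% and 0.372% in the unpaired fit. With so few genes a count of 0 lies near that background, so nothing is read from it.

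Other chromatin repressors gave the same count of 0 calls, which lies near the background given above and is not read as no change. Of these 13 genes 12 had a higher mean in tumour, against 61.6% of all tested genes, with a median difference of 0.15 log2. In 4 of the 13 every tumour array lay above every control array, against 8.72% of all tested genes. The difference from these shares was not tested. Of 13 tested genes, among them the chromatin remodeller gene Mi-2 (0.02 log2), the HP1 paralogue HP1b (0.25 log2), the Polycomb group gene Sfmbt (0.18 log2) and Pc (0.27 log2), 0 were called by limma in either fit, with an unadjusted p under 0.05 for 1 unpaired and 4 paired. Of 8 tested genes of the microRNA and siRNA machinery that somatic cells use, such as gw (-0.13 log2), Dcr-2 (0.05 log2), Ranbp21 (0.15 log2) and drosha (0.21 log2), 0 were called by limma, with an unadjusted p under 0.05 for 0 unpaired and 2 paired.

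Position on the chromosome was not used to select the genes, and the 3 protein-coding genes on each side of Kots, krimp and RpS5b were taken from the NCBI table of assembly Release 6. The nearest genes of Kots were Ipp and Orc2, a subunit of the replication origin complex. Ipp had 9.72, 10.25 and 10.24 log2 in tumour discs and 9.40, 9.90 and 9.86 log2 in control discs, a difference of 0.34 log2 (limma adjusted p = 0.028 paired, 0.85 unpaired). Orc2 differed by 0.29 log2 (limma adjusted p = 0.14 paired). rdx differed by 0.14 log2 on its brightest probe set and by 0.40 log2 on another (limma adjusted p = 0.31 and 0.11 paired). CG31517, CG9926 and Cyp6d5, also near Kots, were at or next to the floor in both genotypes.

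All 6 neighbours of krimp were at the floor on all 6 arrays, with differences of 0.00 log2. Next to RpS5b the proton pump genes VhaPPA1-1 and VhaPPA1-2 differed by -0.02 and 0.00 log2. Nup93-2 and CG3817, also near RpS5b, differed by 0.15 and -0.11 log2 (limma adjusted p = 0.25 and 0.46 paired), and CG14861 was at the floor. Sdr, which encodes a secreted binding protein of insulin-like peptides, had 6.35, 7.63 and 7.58 log2 in tumour discs and 5.99, 7.01 and 6.79 log2 in control discs, a difference of 0.59 log2 (limma adjusted p = 0.048 paired, 0.92 unpaired). Of the 18 neighbours 7 were tested, and limma called 0 in the unpaired fit (0 with an unadjusted p under 0.05) and 2 in the paired fit. Both paired calls were higher in tumour, and 4.06% of all tested genes were called higher in that fit. The differences of the 18 neighbours ran from -0.11 to 0.59 log2. Since Kots, krimp and RpS5b were selected on their differences and the neighbours were not, nothing is read from the contrast between them.

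**Figure D5:**
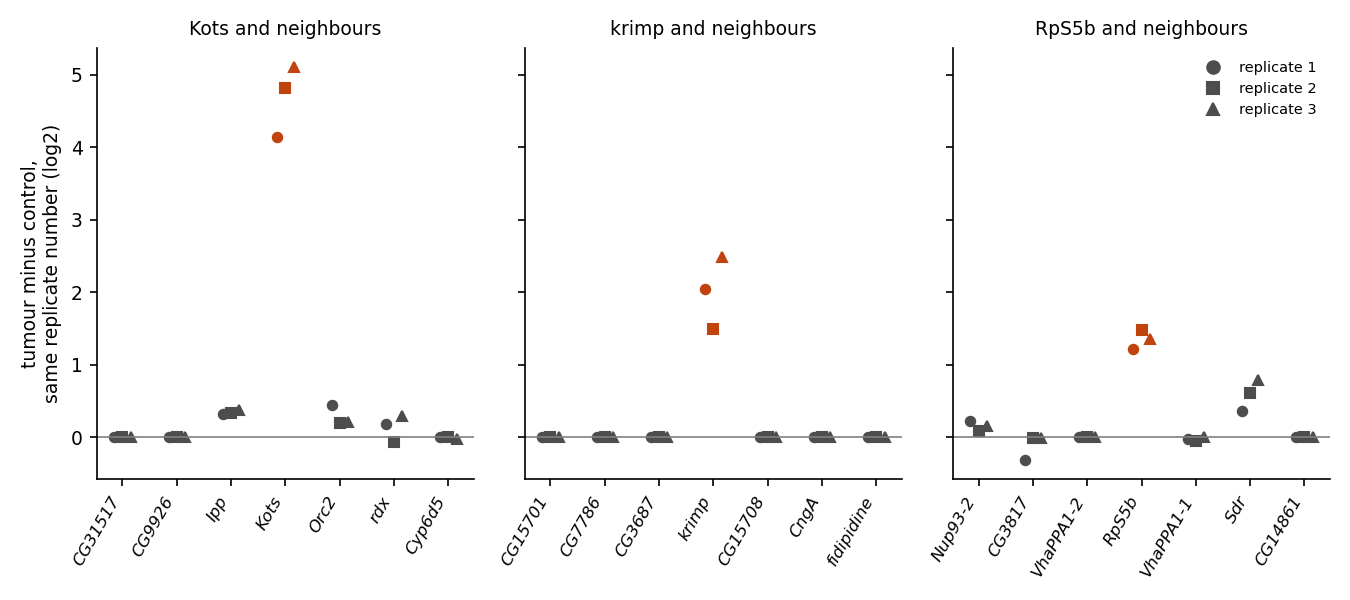
Tumour minus control log2 difference (vertical axis) between arrays of the same replicate number for Kots, krimp and RpS5b in colour and for the 3 protein-coding genes on either side of each in grey, in chromosome order. The members stand at 4.68, 2.01 and 1.35 log2, and the neighbours lie between -0.11 and 0.59 log2.

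Genes whose span overlaps a member were also read. Kots, krimp, RpS5b, AGO3 and tej overlap no other gene in the table. bam overlaps CG11854, which had 3.32, 3.82 and 3.23 log2 in tumour discs and 5.68, 6.11 and 6.86 log2 in control discs. That difference of -2.76 log2 (limma adjusted p = 0.040 unpaired, 0.012 paired) stood beside a bam that was at the floor on all arrays. vig, which overlaps vas, differed by -0.04 log2 (limma adjusted p = 0.66 paired), and SCAR, which overlaps piwi, by 0.01 log2 (limma adjusted p = 0.89 paired). These partners of vas and piwi had values above 10 log2 on all arrays, while vas and piwi stayed near the floor. TTLL4A, which overlaps aub, differed by 0.25 log2 (limma adjusted p = 0.18 paired). CG11779 and Nsun5, which overlap nos, differed by -0.19 and 0.07 log2 (limma adjusted p = 0.38 and 0.6 paired).

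The genes whose values over the 6 arrays were most like those of Kots, by Pearson correlation among tested genes, were Lcp65Ad (r = 0.995), VepD (r = 0.993), CG13046 (r = 0.991), CG15027 (r = 0.990) and comm2 (r = 0.990). Lcp65Ad encodes a larval cuticle protein, with 6.86, 7.40 and 7.47 log2 in tumour discs and 4.79, 5.12 and 5.07 log2 in control discs. For krimp they were CG18764, CG3777, Smyd3, CG42365 and Lim3, with r between 0.993 and 1.0, and these shared its lower replicate 1 arrays. For RpS5b they were HP4 (r = 0.992), CG6414, Ddr, CG15212 and CG5835 (r = 0.977). None of these 15 genes was in the germline lists, which hold 68 of the 6447 tested genes, so nothing is read from that count. With 6 arrays in 2 genotypes that share replicate effects, such values describe the arrays and carry no test.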

How the data were processed

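RNA from 6 disc pools was hybridised to Affymetrix Drosophila Genome 2.0 arrays, 1 per sample. The deposited values are log2 intensities that the authors made with GCRMA, per the submitters' processing notes; the version is unknown, and the log2 scale was read from the values. Nothing was normalized again. With 3 arrays a genotype, their number sets the precision.

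GEO's platform annotation gave 1 gene for 13647 of 18769 probe sets other than controls, several for 402 and none for 4720. Of these, 13544 had a gene identifier that NCBI's gene table for assembly Release 6 holds, and that table gave names and neighbours. Probe sets entered the tests if 3 or more arrays had a log2 value of 4 or more, which left 7962 probe sets and 6447 genes, each read on its brightest tested probe set. The genotypes were compared in R 4.3.3 using limma 3.58.1 (linear models, eBayes with a trend), two-sided, adjusted over all tested probe sets. The fit was also run on simulated data with paired replicates built in. That run says nothing of the pairing of these arrays. The labels call the samples biological replicates.

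Replicate numbers run from 1 to 3 in both genotypes. Deviations from the genotype means correlated at 0.794, 0.467 and 0.723 between arrays of the same number, all above the bound of 0.1 for treating them as pairs. For tumour replicate 2 the correlation was higher with control replicate 3 (0.668) than with control replicate 2. Tumour replicate 3 with control replicate 2 gave 0.473. Arrays of unlike number thus also passed the bound, which cannot tell the pairing of replicates 2 and 3 apart. The pairing comes from the data, not the labels.

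The members and the gene lists were chosen with earlier results of these arrays known. Genes named are the members, for each list up to 5 genes called in the paired fit and up to 3 with the highest mean level, the neighbours of the 3 rising members, and the 5 genes most correlated with each of the rising members. Other list genes are named for their role, after their values were seen. List names with no probe set of 1 gene were left out. Promoter and protein sequences were not used here. Alternatives were the replicate block, each array left out, replicates 2 and 3 alone, quantile normalization, centring on ribosomal protein genes, other filters and no trend.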

Additional observations from a re-analysis of the deposited data

How the results depend on the processing

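The differences of Kots, krimp and RpS5b kept their direction under every alternative run. Leaving out 1 array gave 4.48 to 4.96 log2 for Kots, 1.43 to 2.56 log2 for krimp and 1.27 to 1.45 log2 for RpS5b. The direction was fixed by their selection. The unpaired count of 33 called genes was 609 with the replicate block, 462 with replicates 2 and 3 alone, 182 with quantile normalization, 153 with arrays centred on ribosomal protein genes and 1 with no filter. Leaving out 1 array gave between 0 and 13: 13 when tumour replicate 1 was omitted, 6 for control replicate 1, 1 for tumour replicate 3, and 0 for each of tumour replicate 2, control replicate 2 and control replicate 3. Of list genes other than the members, limma called 0 unpaired, 4 with the replicate block, 3 with replicates 2 and 3 alone and 1 with quantile normalization. The 4 paired calls became 1, 1 and 0 without replicate number 1, 2 or 3, 8 with quantile normalization and 2 with ribosomal centring, choices made after seeing the data. The cause was not tested. The 68 list genes that reached the level of 4 were 72 at a level of 3, 60 at 6 and 64 when all probe sets of a gene had to reach it. Promoter windows were not run. Values near the floor limit what can be said of the genes at it.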
